A study of Mus musculus with 21 samples.

Results

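The difference between a Mex3a fusion and its control construct in mCherry-labelled cells of the olfactory epithelium, beyond the difference in unlabelled cells of the same animals, was measured in 8 mice that each gave an mCherry-positive and an mCherry-negative library. These are 16 of the 21 libraries of the series. All of them came from the main olfactory epithelium of mice that carried both gg8tTA and OMPtTA, drivers of tetracycline-responsive transgenes in immature and in mature olfactory sensory neurons (OSN). In 5 mice the driven transgene was tetO-Mex3a_HyperTRIBE_mCherry (MexHT), and in 3 it was tetO-HyperTRIBE_mCherry (HT). The HT transgene carries the editing domain and mCherry without Mex3a. The mice of the 2 constructs also differed in sex-linked transcripts, Adar signal and macrophage transcripts, as given below. The mCherry-positive cells are labelled as sorted immature and mature OSN. The mCherry-negative libraries are labelled as sorted cells of the same mouse, and served the submitters as its internal control. A further MexHT mCherry-positive library, replicate 6, has no partner and was left out of the within-mouse comparison. Another 4 libraries, from 2 mice with gg8tTA alone and the MexHT transgene, are given only beside the named genes. Mouse age is not given in the labels.

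Olfactory sensory neurons are replaced throughout life from basal progenitors, and each passes through an immature stage, when it grows its axon and is marked by Gap43 and Gng8, to a mature stage marked by Omp, with cilia that carry the odorant receptors. Mex3a is an RNA-binding protein with KH domains and a RING domain, known from stem and progenitor cells. HyperTRIBE is the catalytic domain of an ADAR enzyme with raised activity, which marks the RNAs bound by a fused protein through A-to-I editing. The transcript levels analysed here show neither editing nor binding.

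For each gene and mouse, the mCherry-negative value was subtracted from the mCherry-positive value on the scale log2(TPM + 1), where TPM is the deposited transcript abundance, scaled for gene length and library size. The quantity reported below as the interaction is the mean of this within-mouse difference in the 5 MexHT mice minus its mean in the 3 HT mice. A positive interaction says that a transcript was enriched in mCherry-positive cells more, or depleted less, in MexHT than in HT mice. Differences on this scale understate the change of genes with low TPM. A gene is called where limma's adjusted p (Benjamini-Hochberg over all genes tested) was under 0.05. Nothing in the labels says that the mice were littermates or were sorted on separate days. The p-values measure the spread between these 8 pairs of libraries, each taken as 1 mouse as labelled.

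The 16 libraries held between 7425287 and 12443133 recovered counts and between 15088 and 18006 genes at 1 TPM or more, with HT mCherry-positive replicate 2 the highest. In 6 of the 8 mice both Xist and Y-linked transcripts were present in both libraries, in all 5 MexHT mice and in 1 of 3 HT mice, and the other 2 HT mice had Y-linked transcripts only. The 2 libraries of each mouse matched in this respect in 8 of 8 mice. The labels speak of 1 mouse per replicate, and whether animals were pooled was not tested. Sex-linked transcripts thus differed between the mice of the 2 constructs, and their part in the interaction was not tested.

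Mex3a, the gene that the MexHT transgene carries, checked the labels. It lies on chromosome 3 (chr3:88532395-88541396, plus strand, mm10, the build named in the submitters' processing notes, positions from GENCODE vM21). In the mCherry-positive libraries of MexHT replicates 1 to 5 Mex3a was at 359, 337, 328.5, 332 and 1271 TPM. In their mCherry-negative libraries it was at 57.8, 106, 144, 93.7 and 207 TPM. In HT replicates 1 to 3 it was at 24.0, 32.1 and 61.5 TPM in mCherry-positive cells and at 29.3, 58.4 and 74.4 TPM in mCherry-negative cells. All 5 MexHT mice had more Mex3a in the positive library than in the negative one, and all 3 HT mice had less, so the groups did not overlap. The interaction was 2.44 (SE 0.32, limma adjusted p = 0.0016), and a two-sided exact permutation test of 5 against 3 mice gave p = 0.0357, the smallest it can give. Reads of the transgene and of the endogenous gene are summed in these values. Mex3a in the mCherry-negative libraries was also higher with MexHT, by 1.13 on the log2 scale, and MexHT replicate 5 had the highest level in both fractions.

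**Figure D1:**
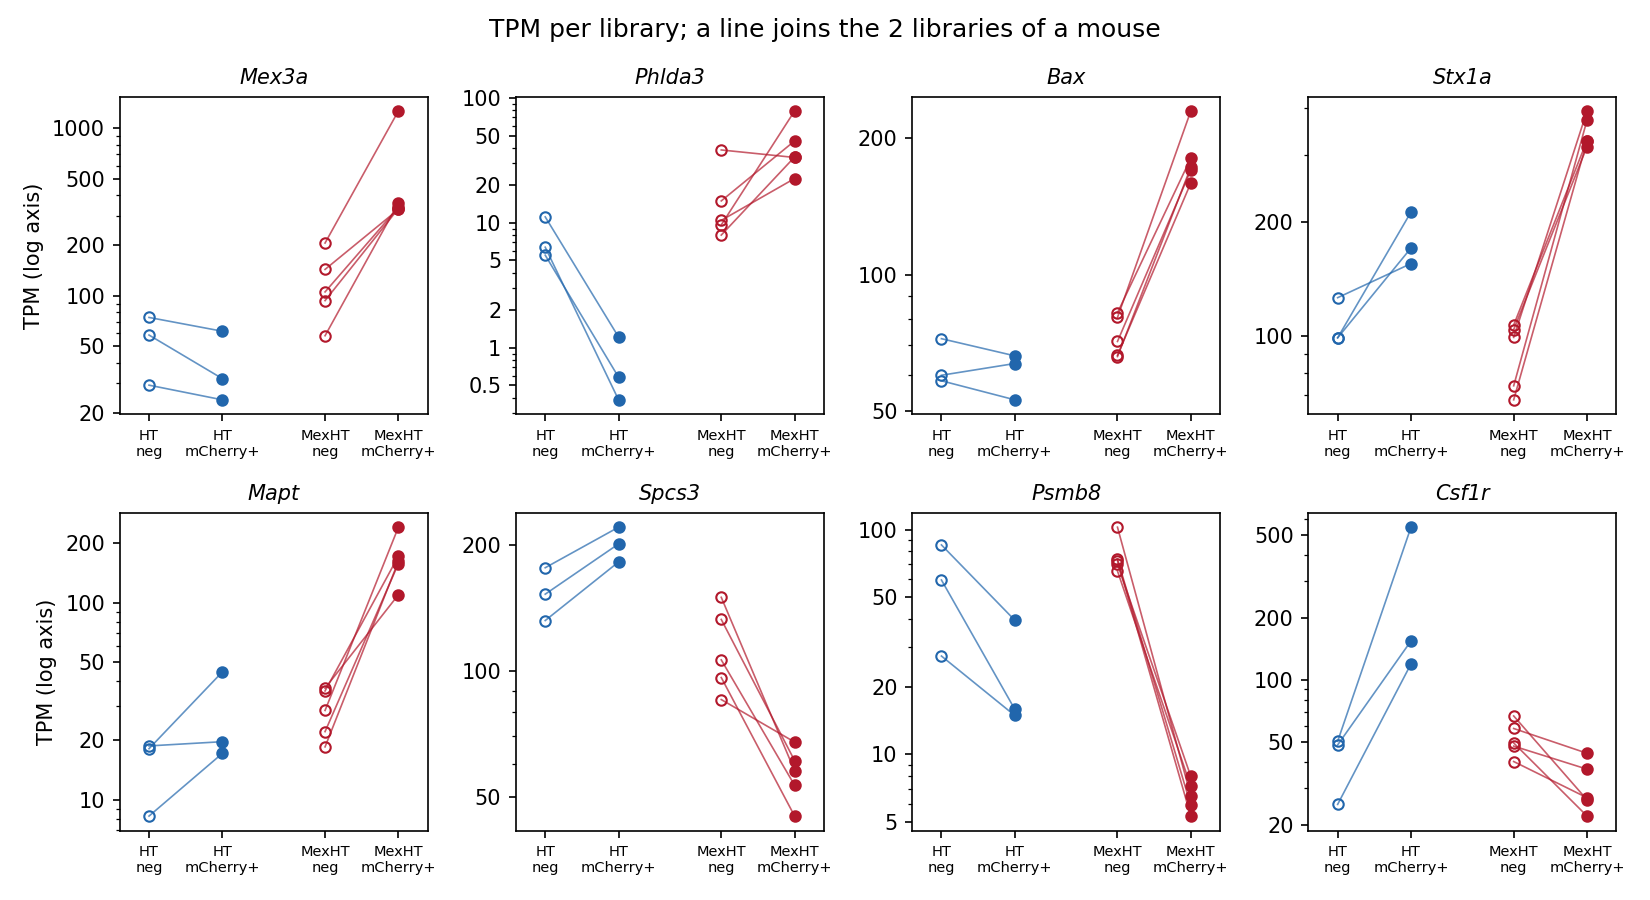
TPM on a log axis of 8 genes in each of the 16 libraries, with HT mice in blue and MexHT mice in red, open circles for mCherry-negative and filled circles for mCherry-positive libraries, and a line joining the 2 libraries of a mouse. Mex3a, Bax, Stx1a and Mapt climb steeply from negative to positive cells in all 5 MexHT mice, Phlda3 falls in all 3 HT mice, and Csf1r falls in all 5 MexHT mice and climbs in all 3 HT mice.

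Across the 16842 genes that averaged 1 TPM or more over the 16 libraries, the interaction was called for 2593 genes, 15.4% of those tested. It was positive for 1416 genes (8.41%) and negative for 1177 (6.99%). The within-mouse differences of the 2 constructs did not overlap for 4327 genes (25.7%), and the median interaction over all genes tested was 0.11. The number called moved by more than 1.5 times when a single mouse was left out: 1000 without HT replicate 2, 1281 without HT replicate 1, 1431 without HT replicate 3 and 1505 without MexHT replicate 4. No gene was called in the opposite direction in any of these fits. Of the called genes 54.6% were positive, against 38.4% after median-of-ratios scaling, which set the median interaction to -0.01, and 36.5% with limma-voom on recovered counts.

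Most called genes differed between the constructs mainly in the mCherry-positive cells. Among the 1416 positive genes the median difference between MexHT and HT was 0.69 in mCherry-positive and -0.14 in mCherry-negative libraries, and in 1089 of them (76.9%) the difference in positive cells had the direction of the interaction and was the larger. In the other 327 the opposite difference in the mCherry-negative cells was the larger. Among the 1177 negative genes these medians were -1.26 in positive and 0.37 in negative cells, and the difference in positive cells was the larger in 1027 (87.3%). The same medians over all tested genes were 0.02 and -0.01. Positive genes were therefore mainly higher, and negative genes mainly lower, in the mCherry-positive libraries of MexHT mice.

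**Figure D2:**
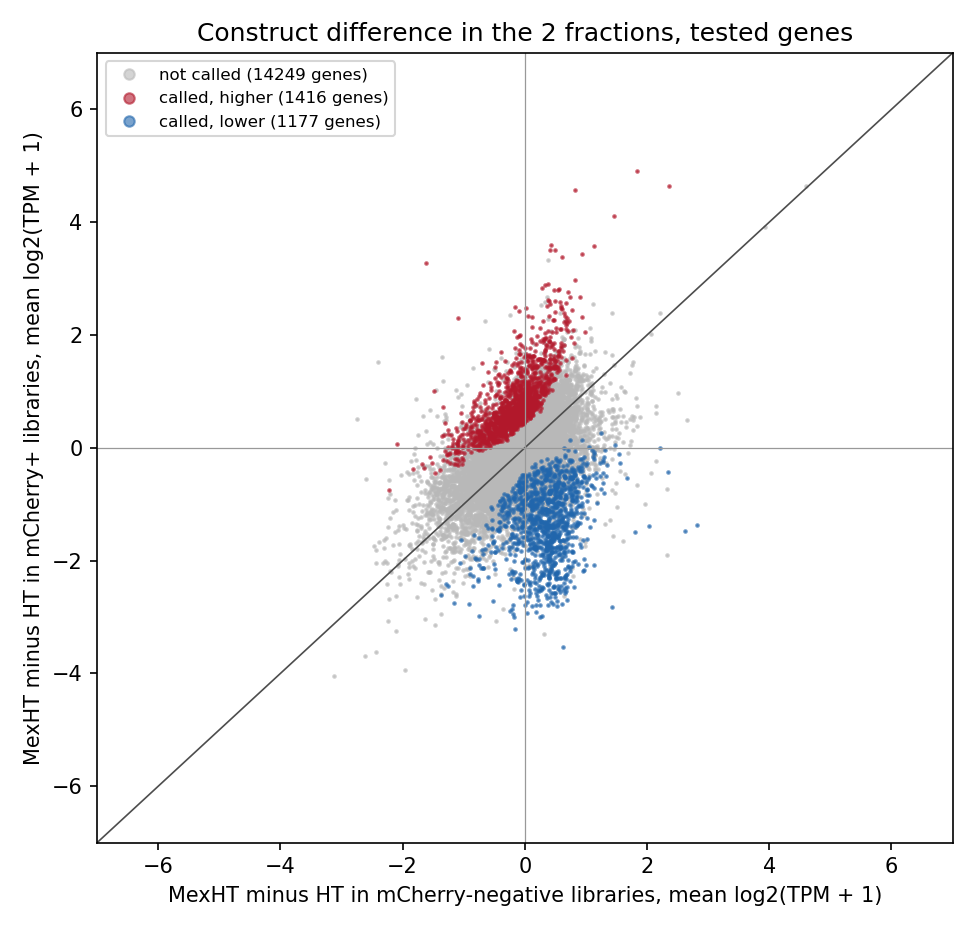
Each point is 1 of the 16842 tested genes, placed by its mean log2(TPM + 1) difference between MexHT and HT in mCherry-negative libraries (horizontal) and in mCherry-positive libraries (vertical), with the 1416 genes called positive in red and the 1177 called negative in blue. Genes on the diagonal differ equally in both fractions; the called genes lie off it, spread mostly along the vertical axis.

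The sort was checked against marker lists before the gene groups were compared. The 16 mature OSN markers summed to between 11820 and 18120 TPM in HT mCherry-positive libraries and between 2264 and 7970 TPM in MexHT ones. In the mCherry-negative libraries they summed to between 7139 and 15180 TPM (HT) and between 542 and 9441 TPM (MexHT), so the negative fractions were not free of mature neuron transcripts. Omp alone was at 1986, 2159 and 1093 TPM in the HT negative libraries, and at 1076, 1431, 279, 892 and 46.9 TPM in the MexHT ones, where replicates 3 and 5 were lowest. Neutrophil transcripts were almost confined to the negative fraction, with sums of 172 to 421 TPM (MexHT) and 228 to 514.5 TPM (HT) in positive and 7155 to 19150 TPM in negative libraries of both constructs. In bulk libraries, fewer cells of a type and less RNA per cell cannot be told apart.

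Macrophage transcripts did not follow that pattern. The 16 macrophage markers summed to 2763, 2127 and 8869 TPM in the mCherry-positive libraries of HT replicates 1 to 3, and to 3009, 1793 and 3243 TPM in the negative ones. In MexHT replicates 1 to 5 they summed to 617, 624, 562, 682 and 984 TPM in positive and to 4819, 2895, 3542, 3317 and 3731 TPM in negative libraries. Every HT positive library thus held more macrophage transcript than any MexHT positive one, and HT replicate 3 held the most. The mean within-mouse difference of the list was 1.10, 1.52 and 2.94 in HT mice and between -2.02 and -0.36 in MexHT mice. No member was at or under 3 counts in all libraries of a group. The construct and the macrophage content of the positive fraction therefore move together in these 8 mice.

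**Figure D3:**
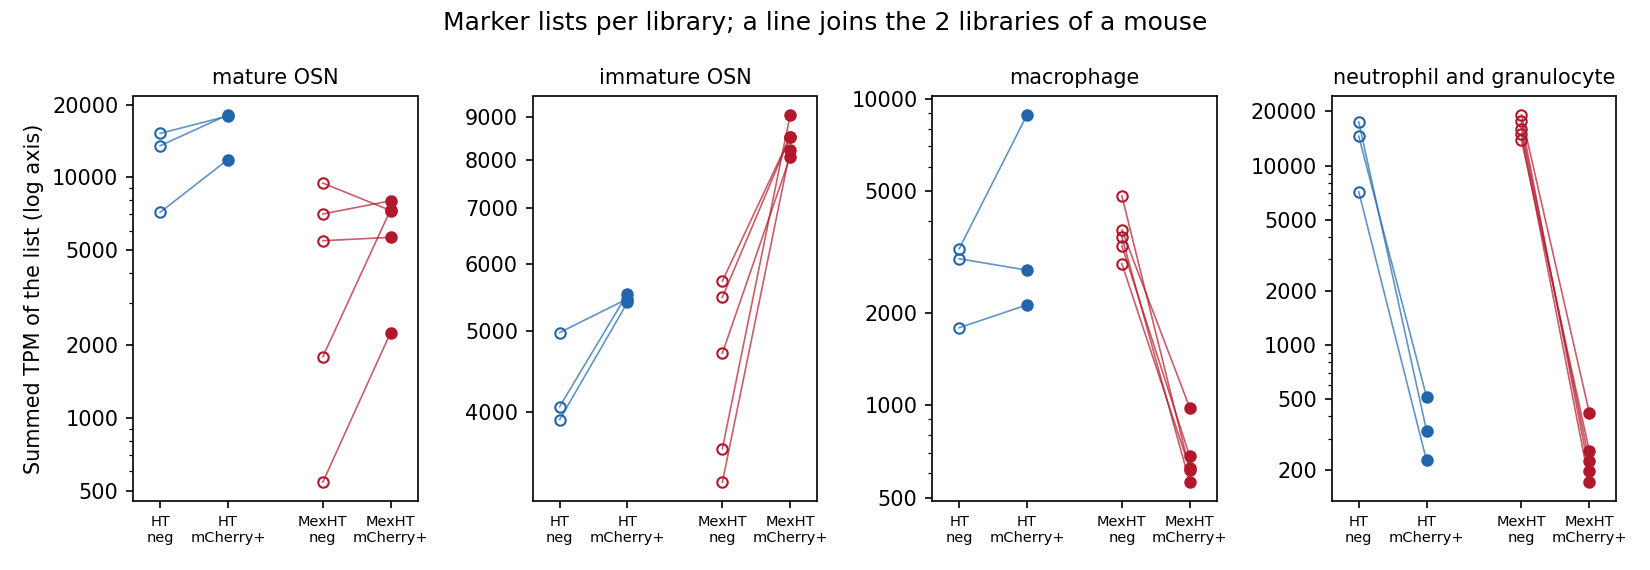
Summed TPM (log axis) of 4 marker lists in each library, HT mice in blue and MexHT mice in red, open circles for mCherry-negative and filled for mCherry-positive libraries, with a line joining the 2 libraries of a mouse. Macrophage markers fall steeply from negative to positive cells in MexHT mice only, while neutrophil markers fall in all 8 mice.

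Among called genes that reached 5 TPM in at least 1 group and did not overlap between constructs, the 12 most negative were Abcc3, Adgre1, Cyth4, Clec4n, Ccl3, Trem2, Fyb, Mpeg1, Slc11a1, Trf, Cd14 and Csf1r. They had interactions from -3.40 (Abcc3, adjusted p = 0.0020) to -3.18 (Csf1r, adjusted p = 0.00095) by limma. Csf1r, the receptor for the macrophage growth factor CSF1, was at 154, 119.5 and 547 TPM in HT positive libraries and at 48.5, 25.1 and 50.5 TPM in HT negative ones. In MexHT mice Csf1r was at 26.4, 27.0, 22.0, 37.1 and 44.2 TPM in positive and at 67.0, 40.4, 49.6, 47.9 and 58.3 TPM in negative libraries. All HT positive libraries lay above every other library. Trem2, a lipid-sensing receptor of macrophages and microglia, was at 54.7, 39.97 and 173 TPM in HT positive libraries and between 5.80 and 10.6 TPM in MexHT positive ones. Cd14, the co-receptor for bacterial lipopolysaccharide, differed also in the negative fraction, where it was at 322 to 552 TPM in MexHT and 134 to 308 TPM in HT mice. In the 2 gg8tTA MexHT mice the within-mouse differences of these genes went both ways. Abcc3, Adgre1, Trem2, Trf and Csf1r were above 0 in both mice. Csf1r was at 0.39 and 0.56, and Adgre1, the macrophage receptor F4/80, at 0.43 and 0.89. Cyth4, Clec4n, Fyb, Mpeg1 and Cd14 were below 0 in both mice. Cyth4 was at -0.911 and -0.715, and Cd14 at -1.056 and -0.739. Ccl3 and Slc11a1 differed in sign between the 2 mice.

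In the interaction the whole macrophage list was negative: 16 of 16 members were called negative, with a median of -2.88 against 0.11 over all genes. The complement genes C1qa, C1qb and C1qc, the lysosomal genes Cd68 and Ctss and the signalling adaptors Tyrobp and Fcer1g were all among them. Tyrobp had an interaction of -3.14 (SE 0.30) and Fcer1g of -3.05 (SE 0.28). Between 11 and 16 members stayed called when 1 mouse was left out, the fewest without HT replicate 3. Apoe, listed with ensheathing glia and also abundant in macrophages, had an interaction below 0, of size 2.31 (adjusted p = 0.032, limma).

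Promoters of these genes were searched for the core of the binding site of PU.1, the transcription factor that specifies myeloid cells, as GAGGAA on either strand, in the 300 bases from 250 before to 50 after the start site (RefSeq, GRCm38.p6). A promoter was found for 12287 tested genes, 73.0% of them. The core was present in 7 of 11 macrophage-list promoters, in 37.1% of those of genes called negative, in 23.8% of those called positive and in 27.0% of all. 3 stretches of 120 bases upstream of the start are shown for macrophage-list genes that hold it, to let the matches be seen in place, and are read 5′ to 3′ along the gene with the match in capitals: Cd68 (chr11:69666301-69666420, minus strand), Ctss, a lysosomal protease (chr3:95526565-95526684, plus strand), and Trem2 (chr17:48346281-48346400, plus strand), where the match is on the other strand.
Cd68: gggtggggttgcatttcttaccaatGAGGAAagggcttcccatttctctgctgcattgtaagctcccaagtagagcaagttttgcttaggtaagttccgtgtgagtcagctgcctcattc
Ctss: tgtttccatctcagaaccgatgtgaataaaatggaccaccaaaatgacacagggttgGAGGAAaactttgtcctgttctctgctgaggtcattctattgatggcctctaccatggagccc
Trem2: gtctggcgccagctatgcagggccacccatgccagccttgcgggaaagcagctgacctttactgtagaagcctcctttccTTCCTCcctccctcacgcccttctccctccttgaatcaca
A match is a description of the letters, and binding was not measured.

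The mean macrophage difference separated the constructs without overlap. A fit with that value of each mouse as a covariate, added after the data were seen, called 0 genes by limma, with 1943 at an unadjusted p under 0.05 and a lowest adjusted p of 0.072. In that fit the genes called positive kept a median interaction of 0.93 (from 0.88), with 1411 of 1416 of the same sign, while the median SE rose from 0.20 to 0.47. The genes called negative moved from -1.55 to -1.05, with 1062 of 1177 of the same sign. Both sets were chosen by their sign in the same mice, so the share of kept signs is no separate support. Because the covariate separates the constructs, the fit cannot decide how far either set depends on macrophage content. The medians of several gene lists described below also turned sign in that fit: sustentacular from -1.59 to 1.02, basal from -1.16 to 0.41, zone and identity factors from 0.295 to -0.03, stress response from -0.26 to 0.15 and immediate early genes from -0.22 to 0.25. Immature OSN markers moved from 0.73 to 0.36 and neuronal RNA-binding proteins from 0.41 to 0.18, while synaptic vesicle genes were at 0.85 and 0.95 and cilia genes at 0.53 and 0.56. The part of macrophage transcripts in each gene's result cannot be told apart from that of the construct with these mice.

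By the same conditions the 12 genes with the largest positive interactions were Phlda3, Vcan, Cntfr, Ndn, Fam212b, Gpr85, Pcp4, Adcy1, Armcx4, Camk2b, Clec2l and Cbln2. Phlda3, a p53-induced inhibitor of Akt signalling, led with an interaction of 3.75 (SE 0.56, limma adjusted p = 0.0028). It was at 33.4, 33.7, 22.6, 45.3 and 78.7 TPM in MexHT positive libraries and at 38.3, 7.99, 10.5, 15.0 and 9.63 TPM in their negative ones. In HT mice Phlda3 was at 0.384, 0.582 and 1.22 TPM in positive and at 6.39, 5.51 and 11.2 TPM in negative cells. Every MexHT positive library was above every HT library, and the HT positive libraries were the lowest of all, with only 2, 3 and 5 counts.

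Several of the others had this form, with a transcript that was scarce in HT positive libraries and present in MexHT positive ones. Vcan, the extracellular matrix proteoglycan versican, was at 62.7, 59.7, 41.5, 37.4 and 9.51 TPM in MexHT positive libraries and between 1.17 and 4.73 TPM in HT ones (interaction 3.18, SE 0.56). Cntfr, the receptor for ciliary neurotrophic factor, was at 46.9, 44.2, 32.0, 38.8 and 4.39 TPM against 1.12 to 1.88 TPM (3.09, SE 0.54). Ndn, the imprinted gene for necdin, a growth suppressor of postmitotic neurons, was at 50.7, 50.9, 48.6, 92.1 and 8.37 TPM against 2.21 to 3.25 TPM (3.02, SE 0.63). In all 3 genes MexHT replicate 5, the mouse with the most Mex3a, was the lowest of the MexHT positive libraries but stayed above the HT positive ones. Its positive and negative libraries differed little, with within-mouse differences of -0.06 (Vcan), 0.19 (Cntfr) and -0.15 (Ndn). The negative library of HT replicate 3 held more of all 3 genes, at 15.0, 7.35 and 14.6 TPM in the same order.

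Camk2b, a subunit of calcium/calmodulin-dependent kinase II, was at 52.2, 54.0, 49.6, 51.1 and 31.2 TPM in MexHT positive libraries, between 5.49 and 10.2 TPM in MexHT negative ones and between 3.44 and 6.90 TPM in all HT libraries (interaction 2.52, SE 0.32). Pcp4, a small modulator of calmodulin, was between 21.9 and 55.6 TPM in MexHT positive libraries and at 2.63, 0.444 and 1.68 TPM in HT ones (2.65, SE 0.52). In HT replicates 1 to 3 Pcp4 had only 6, 1 and 3 counts in positive and 3, 5 and 3 counts in negative libraries. Its call was lost with limma-voom on recovered counts. Adcy1, a calmodulin-stimulated adenylyl cyclase, had an interaction of 2.56 (SE 0.49), and in HT mice it was lower in positive than in negative cells by 0.44 to 2.68. Gpr85, an orphan receptor of the brain, was between 18.7 and 41.9 TPM in MexHT positive libraries, against 3.51 to 5.72 TPM in the other 11 libraries (2.66, SE 0.33).

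Armcx4, an X-linked armadillo-repeat gene, had the smallest SE of these 12 at 0.21, with an interaction of 2.55. Its within-mouse difference was between 0.78 and 1.33 in MexHT mice and between -1.70 and -1.35 in HT mice. Fam212b was at 2.77 (SE 0.29) and Clec2l, a neuronal C-type lectin, at 2.52 (SE 0.39). Cbln2, which encodes a secreted synapse organiser, was at 16.1, 12.9, 18.6, 35.9 and 1.36 TPM in MexHT positive libraries and at or under 3 counts in every HT negative library, so no fold is given for it; its call was lost in 6 of the 21 alternative fits, among them those without HT replicate 1 or 2 and without the mouse as a block. In the 2 gg8tTA MexHT mice the within-mouse differences of these genes were not alike: Phlda3 was at 3.801 and 2.79 and Fam212b at 2.75 and 4.59, but Ndn was at 3.91 and -1.02 and Camk2b at 2.29 and -0.05.

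**Figure D4:**
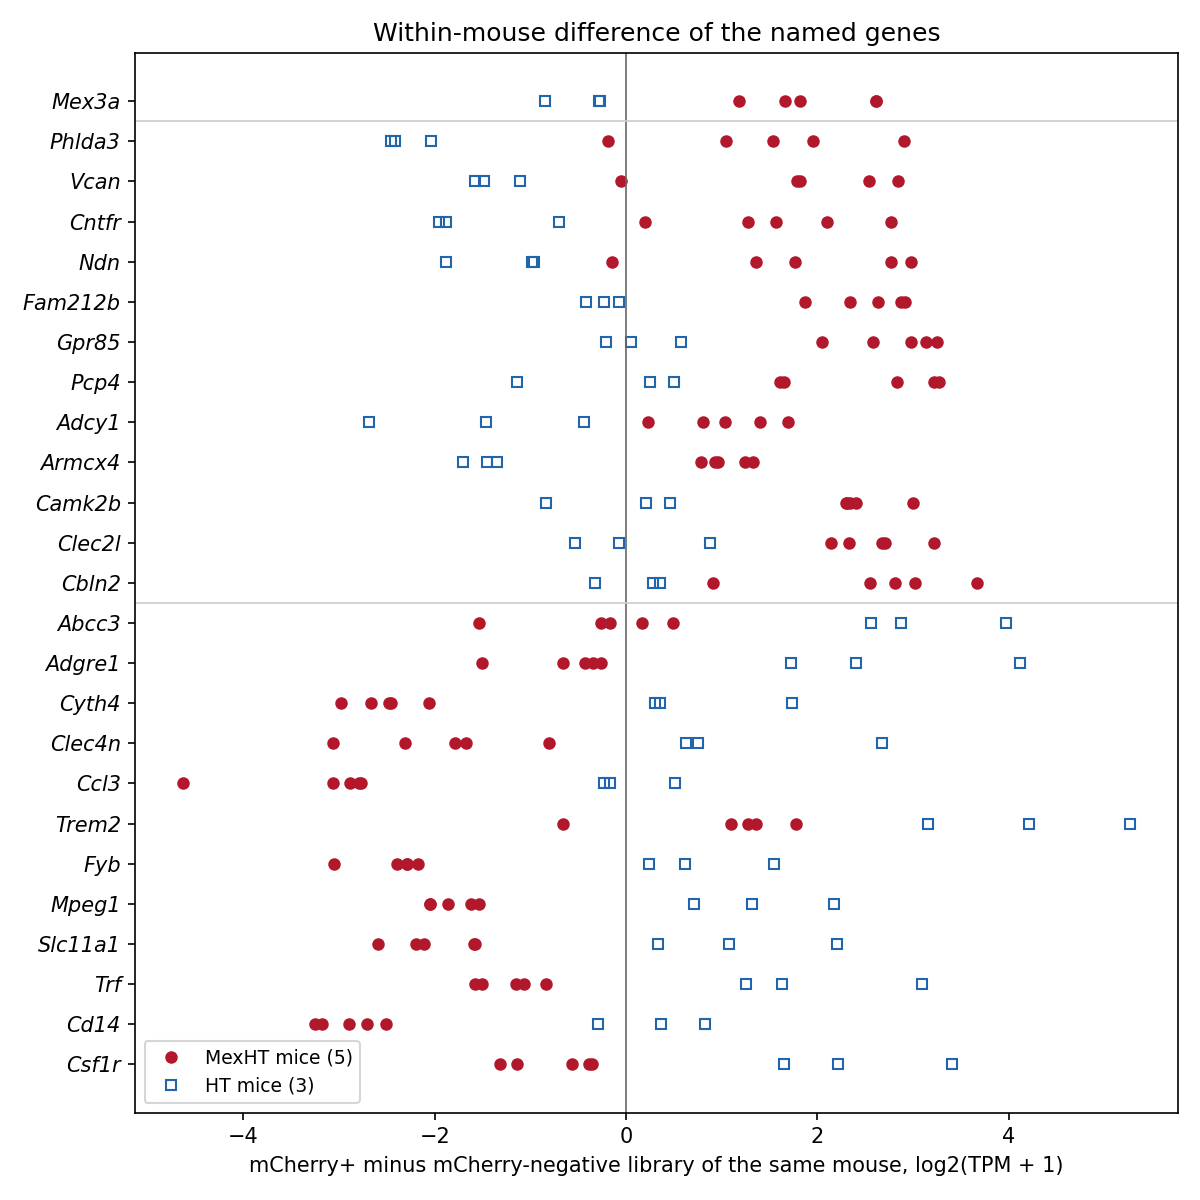
Within-mouse difference in log2(TPM + 1), mCherry-positive minus mCherry-negative library, of Mex3a and the 12 genes with the most positive and the 12 with the most negative interactions, with 1 filled red circle for each of 5 MexHT mice and 1 open blue square for each of 3 HT mice. The genes were chosen so that the groups do not overlap; MexHT replicate 5 is the lowest red point for Vcan, Cntfr and Ndn, and the HT squares of the myeloid genes lie right of the red points.

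Several neuronal gene groups were called in the positive direction more often than the 8.41% of all genes. Of 19 synaptic vesicle genes, 10 were called positive and 0 negative, with a median interaction of 0.85 against 0.11 over all genes. Stx1a, a plasma membrane SNARE protein of the presynapse, was at 326, 328, 316, 371 and 392 TPM in MexHT positive libraries and at 68.2, 107, 104, 74.2 and 99.4 TPM in negative ones. In HT mice Stx1a was at 171, 155.5 and 212.5 TPM in positive and at 99.2, 126.5 and 99.2 TPM in negative libraries. Each MexHT positive library lay above all others, and the interaction was 1.22 (SE 0.23, limma adjusted p = 0.0081).

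Among the called vesicle genes were also Syn1 and Syn2, the synapsins that tether vesicles, Sv2a, a vesicle membrane protein (1.15), Vamp2, the vesicle SNARE (0.76), Rims1 of the active zone, and the complexins Cplx1 and Cplx2. For Sv2a the 2 fractions contributed unequally: MexHT differed from HT by 0.29 in positive and by -0.86 in negative cells. The list as a whole showed the same split, with medians of 0.11 in positive and -0.90 in negative cells. Of this list, 6 genes were called without MexHT replicates 3 and 5, the mice with the least Omp in the negative library, and 6 without MexHT replicate 1 or 3 alone. Without MexHT replicate 4 it was 4 genes, and without HT replicate 1 or 2 it was 3.

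Genes of the immature neuron and its growth cone were positive by way of the mCherry-positive cells. All 17 immature OSN markers had an interaction above 0, with a median of 0.73, and 5 were called positive: Crmp1, Dpysl5, Emx2, Gng8 and Tubb3. The list's construct difference was 0.66 in positive and -0.11 in negative cells. The markers summed to 8213, 8073, 8530, 9060 and 8530 TPM in MexHT and to 5403, 5458 and 5536 TPM in HT positive libraries. The sums did not overlap between constructs in positive cells, and did overlap in negative cells (3293 to 5731 TPM and 3913 to 4973 TPM). Without HT replicate 1, HT replicate 2 or MexHT replicate 4, 1 marker was called, without HT replicate 3 it was 3, and without MexHT replicate 5 it was 9.

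Of 21 growth cone and cytoskeleton genes 6 were called positive, with a median of 0.59, and Crmp1, Dpysl5 and Tubb3 belong to both lists. Mapt, the microtubule-binding protein tau, was at 162, 158, 172, 241.5 and 110 TPM in MexHT positive and at 18.6, 22.2, 35.7, 28.4 and 36.8 TPM in MexHT negative libraries. In HT mice Mapt was at 17.2, 19.7 and 44.6 TPM in positive and at 8.27, 18.8 and 18.2 TPM in negative libraries (interaction 1.77, SE 0.38, limma adjusted p = 0.014). Dbn1, the actin-binding protein drebrin, was at 306.5 to 458 TPM in MexHT positive libraries and at 130 to 152 TPM in HT ones (1.19, SE 0.20). Crmp1, a collapsin response mediator that carries semaphorin signals, was at 271 to 327 TPM against 132.5 to 146 TPM (1.29, SE 0.25). Stmn3, a stathmin that destabilises microtubules, had an interaction of 1.04. Without HT replicate 2 there were 2 called genes in this list.

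Mature OSN markers were at lower levels with MexHT in both fractions. Their median construct difference was -1.52 in positive and -1.63 in negative cells, and 0 of 16 were called in the interaction by limma, with 0 at an unadjusted p under 0.05 and a median of 0.31. Adcy3, the adenylyl cyclase of odour transduction, averaged 159.5 TPM in MexHT and 924 TPM in HT positive libraries, and 257 against 647 TPM in negative ones (interaction -0.89, adjusted p = 0.25, limma). Omp averaged 1320 ± 378 TPM (SD, n = 5) in MexHT and 2361 ± 502 TPM (SD, n = 3) in HT positive libraries, and its interaction of 1.02 had an SE of 0.74. The sign of the list's median rested on 2 mice: it was -0.03 without MexHT replicate 3, with 1 marker called negative, and -0.61 without MexHT replicates 3 and 5, with 4 called negative.

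Of 16 odour transduction genes, 1 was called in each direction and 14 did not pass, so the share called was below the 15.4% of all genes. Slc12a2, the chloride importer that loads the cilia, had an interaction below 0, of size 1.06. That of Camk2n1, an inhibitor of CaM kinase II, was 0.82. Reep1 was the only called gene of 7 (14.3%) that help odorant receptors reach the surface (1.27, adjusted p = 0.028, limma). Rtp1 and Rtp2, the main receptor transporters, had interactions of 0.34 and 0.51 that did not pass. Of 1098 odorant receptor genes 512 passed the filter on low values, and 2 were called positive (Olfr571 and Olfr131) and 4 negative (Olfr1395, Olfr1394, Olfr1387 and Olfr1352). These counts varied with the fit: limma-voom called 4 positive and 29 negative, array weights 13 and 38, and the fits without MexHT replicate 4 or HT replicate 2 called 0, with 38 and 31 at an unadjusted p under 0.05. Olfr1395 averaged 40.1 TPM in HT positive libraries, 7.81 TPM in HT negative ones and 5.47 TPM in MexHT positive ones. The receptors' median interaction was -0.07 and ranged from -0.43 to 0.08 over the alternatives, and in the 16-library limma fit the share called, 1.17%, was below the 15.4% of all genes.

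Cilia transport genes were called positive in 8 of 26 cases (30.8%, against 8.41% of all genes), with 25 of 26 interactions above 0 and a median of 0.53. Bbs9, a subunit of the BBSome that carries membrane proteins in cilia, was at 129, 141, 139, 115.5 and 106 TPM in MexHT positive libraries and at 50.3, 64.2, 44.5, 40.2 and 31.0 TPM in negative ones. In HT mice Bbs9 was at 108, 104 and 85.2 TPM in positive and 75.7, 89.9 and 52.96 TPM in negative libraries (1.003, SE 0.18). The positive libraries of the constructs overlapped, and MexHT negative libraries were mostly lower than HT ones. Ift27, Ift122, Ift57, Ift46 and Ift140 of intraflagellar transport and the motor subunits Kif3a and Kif3b were also called. The list's median construct difference was -0.25 in positive and -0.67 in negative cells, and fewer genes were called without MexHT replicate 3 (3), MexHT replicate 4 (2) or HT replicates 1 to 3 in turn (2, 1 and 2).

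Axon guidance and adhesion genes went both ways, with 6 of 20 called positive and 2 negative. Sema3a, a repulsive secreted semaphorin (1.33), Dscam, an adhesion molecule of self-avoidance (1.33), Robo2, a Slit receptor (1.05), Efna5, Kirrel3 and Pcdh10 were called positive. Nrp1, the receptor for Sema3a, and Ncam2, an adhesion molecule of ventral-zone axons, had interactions below 0, of sizes 0.73 and 0.59. Without HT replicate 2 limma called 0 of these 20, with 8 at an unadjusted p under 0.05. It called 1 without HT replicate 1, 3 without HT replicate 3 or MexHT replicate 4, 4 without MexHT replicate 3 and 5 without MexHT replicate 1. Of 16 zone and identity factors Emx2 and Kdm1a were positive, and Ncam2 was negative (18.8% called, against 15.4% of all genes). By limma 0 of them were positive without MexHT replicate 4 or HT replicate 1 or 2, and 0 negative without MexHT replicate 2 or any 1 of the HT mice, with 4 to 8 at an unadjusted p under 0.05.

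Of 36 neuronal RNA-binding protein genes 8 were called positive and 3 negative (30.6% called, against 15.4% of all genes). Celf5, a regulator of splicing, was at 26.4, 28.4, 22.1, 31.3 and 16.96 TPM in MexHT positive libraries and between 3.46 and 6.85 TPM in the other 11 (2.04, SE 0.30). Celf6, Rbfox2, Ptbp2, Nova2, Elavl2, Pcbp3 and Fxr2 were the other positive genes, all of them known in neurons. Igf2bp2, Qk and Ptbp1, more typical of progenitors, glia or other non-neuronal cells, were negative. Without HT replicate 2 the counts were 4 and 0, and without MexHT replicate 4 or HT replicate 1 they were 7 and 0. In the Mex3 family Mex3b was also called (1.21, SE 0.36, adjusted p = 0.048, limma), at 48.6, 49.9, 43.1, 57.3 and 188 TPM in MexHT positive and at 12.8, 15.1 and 20.2 TPM in HT positive libraries. MexHT replicate 5 was again the highest, and the within-mouse differences of Mex3b overlapped between constructs. In 7 of the 8 fits that left out 1 mouse, all except that without MexHT replicate 3, and with the libraries not paired, 1 gene of the family was called, which was Mex3a. Mex3c and Mex3d had interactions of 0.11 and 0.67 and were not called; reads shared between the Mex3 paralogs cannot be assigned with certainty here.

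**Figure D5:**
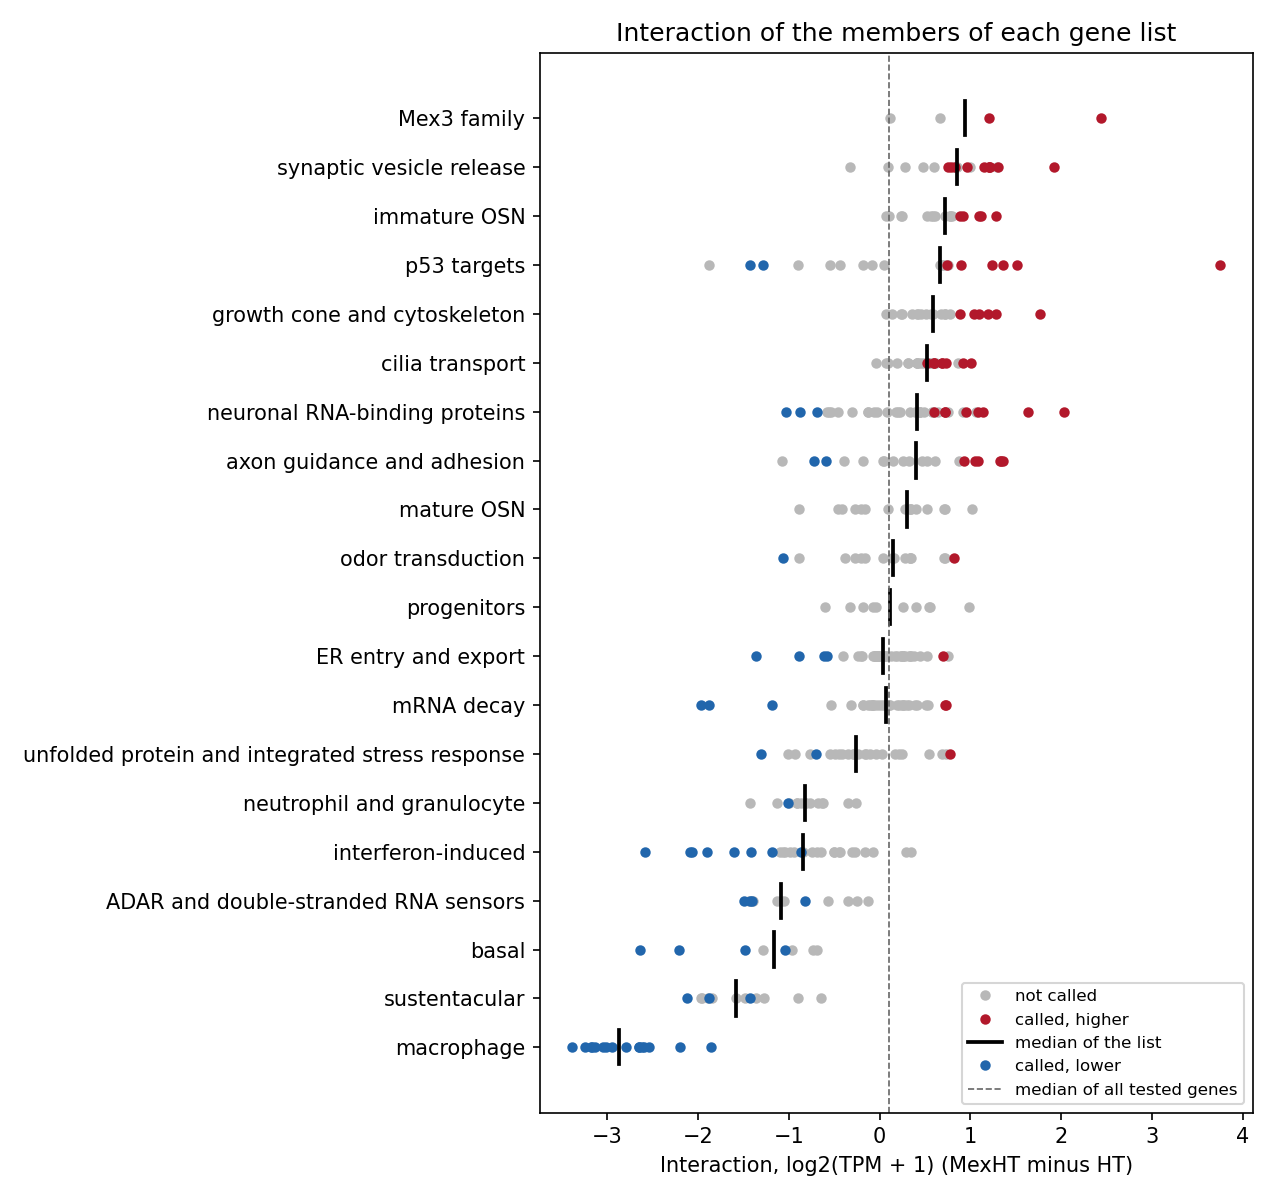
Interaction in log2(TPM + 1) of each tested member of 20 gene lists, red where called positive, blue where called negative and grey where not called, with the list's median as a black bar and the median over all genes, 0.11, as a dashed line. The 16 macrophage genes all lie below -1.8, and 10 of 19 synaptic vesicle genes are red.

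Targets of the p53 transcription factor split by gene. Of 19 tested, 6 were called positive (Phlda3, Aen, Bax, Polk, Zmat3 and Cdkn1a) and 2 negative (Pmaip1 and Rrm2b), with a median of 0.67. The share called was 42.1%, against 15.4% of all genes. Bax, the pore-forming effector of mitochondrial apoptosis (chr7:45461697-45466898), was at 170, 159, 181, 173 and 230 TPM in MexHT positive libraries and at 71.3, 66.5, 82.5, 66.0 and 80.5 TPM in negative ones. In HT mice Bax was at 63.8, 53.03 and 66.3 TPM in positive and at 60.1, 58.4 and 72.3 TPM in negative cells. The MexHT positive libraries stood above the other 11, and the interaction of 1.36 had an SE of 0.14 (limma adjusted p = 0.00052), or a 2.56-fold ratio of TPM + 1. Aen, an apoptosis-enhancing nuclease, was at 54.5 to 101 TPM in MexHT positive libraries and at 11.8 to 26.2 TPM in all others (1.52, SE 0.23).

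Cdkn1a, the cell cycle inhibitor p21, was at 142 to 199 TPM in MexHT positive, 98.0 to 160 TPM in MexHT negative and 56.4 to 121 TPM in HT libraries (0.75, SE 0.16). Pmaip1, the pro-apoptotic gene for Noxa, and Rrm2b, the ribonucleotide reductase subunit for DNA repair, had interactions below 0, of sizes 1.43 and 1.28. Pmaip1 averaged more in MexHT than in HT negative libraries, by 0.80, and less in positive ones, by 0.63. Without HT replicate 1 or 2, 3 genes of the list were called positive. The list's median was 0.32 without MexHT replicate 5, 0.40 without HT replicate 2 and 0.28 with a pseudocount of 5. Counts of called genes in several neuronal lists were also lower when the 2 libraries of a mouse were not treated as a pair: 2 synaptic vesicle, 3 immature OSN, 4 growth cone, 4 cilia and 2 axon guidance genes. Median-of-ratios scaling gave 4, 4, 5, 2 and 2 positive genes in these lists, and every median stayed above 0.

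ADAR and double-stranded RNA sensor genes had no interaction above 0 in 13 tested, and 4 were called negative, with a median of -1.09. These are 30.8% of the list, against 6.99% of all genes called negative. Adar was at 422, 392, 388, 377 and 1198 TPM in MexHT positive libraries and at 1033, 1049 and 1155 TPM in HT positive ones, and between 51.0 and 90.5 TPM in every negative library. Both constructs thus had far more Adar signal in mCherry-positive cells, HT by a within-mouse difference of 4.17 to 4.34 and MexHT by 2.42 to 3.71 (interaction -1.41, SE 0.26). Both transgenes carry an ADAR domain, and whether its reads were counted as Adar was not tested. Ifih1, Ddx58 and Eif2ak2, the sensors MDA5, RIG-I and PKR, were the other called genes. Eif2ak2 was at 4.26 to 9.08 TPM in MexHT positive and at 13.9 to 21.3 TPM in HT positive libraries.

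Interferon-induced genes were negative in 8 of 27 cases (29.6%, against 6.99% of all genes) and positive in 0, with a median of -0.84. Psmb8, a subunit of the immunoproteasome, was at 15.9, 14.9 and 39.5 TPM in HT positive and at 5.93, 7.97, 5.32, 7.20 and 6.54 TPM in MexHT positive libraries. In negative libraries Psmb8 was at 59.6, 27.4 and 85.4 TPM (HT) and at 73.9, 70.2, 72.7, 65.4 and 102 TPM (MexHT). All positive libraries of MexHT lay below those of HT (interaction -2.09, SE 0.27). Cxcl10, Gbp3, Mx2, Trim25, Bst2, Isg15 and Psmb9 were the others, and macrophages express several of these genes. With the macrophage covariate, which moves with the construct, the list's median was 0.04. The part of macrophages in these values was not tested. By leave-one-out, 3 genes were called without HT replicate 3, and 5 without MexHT replicate 3, MexHT replicate 4, HT replicate 1 or HT replicate 2, and 4 with the libraries not paired.

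The response element that interferons act through was searched as GAAA, any 2 bases and GAAA on either strand in the same promoters. Matches to it and to the PU.1 core were counted separately and may overlap. It was found in 10 of 21 interferon-induced promoters, in 5.77% of those of genes called negative, in 1.69% of those called positive and in 3.08% of all. It is shown with capitals for Cxcl10, a chemokine (chr5:92349020-92349139, minus strand), and Gbp3, a guanylate-binding protein (chr3:142559924-142560043, plus strand), the list's called genes of lowest p that hold it before the start.
Cxcl10: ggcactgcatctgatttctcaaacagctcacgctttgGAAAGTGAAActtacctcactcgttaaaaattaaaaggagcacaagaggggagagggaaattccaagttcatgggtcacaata
Gbp3: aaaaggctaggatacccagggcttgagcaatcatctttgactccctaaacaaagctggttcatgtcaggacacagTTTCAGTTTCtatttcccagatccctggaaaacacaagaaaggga
The palindromic site of the EBF factors of olfactory neurons, TCCC, any 2 bases and GGGA, was in 1.31% of promoters of genes called positive, in 1.04% of those called negative and in 1.06% of all.

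Genes of protein production and trafficking were called at about the share of all genes or below it. Of 38 genes of entry into and export from the endoplasmic reticulum, 4 were called negative and 1 positive (13.2%, against 15.4% of all genes), with a median of 0.04. The negative count was 2 without MexHT replicate 4 or HT replicate 1 or 2. Spcs3, an essential subunit of signal peptidase (chr8:54520433-54529998), was at 61.2, 57.9, 53.5, 45.1 and 67.8 TPM in MexHT positive and at 133, 150, 106.5, 96.7 and 85.6 TPM in MexHT negative libraries. In HT mice Spcs3 was at 201, 221 and 182 TPM in positive and at 153, 177 and 132 TPM in negative libraries. It fell from negative to positive cells in 5 of 5 MexHT mice and was higher in positive cells in 3 of 3 HT mice (interaction -1.37, SE 0.21, limma adjusted p = 0.0031). Of the 2 catalytic subunits of the same enzyme, Sec11c was negative (-0.89, SE 0.17) and Sec11a positive (0.70, SE 0.14). Sec11a was at 261 to 385 TPM in MexHT positive and at 149 to 173 TPM in HT positive libraries. Ssr3 of the translocon-associated complex and Sec24d of the COPII coat were negative.

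Of 26 genes of the unfolded protein and integrated stress responses, Eif2ak3, the stress kinase PERK, was positive (0.78, SE 0.19) and Atf6 and Nupr1 were negative. The share called, 11.5%, was below the 15.4% of all genes. Eif2ak3 was at 98.1 to 144 TPM in MexHT positive libraries, 57.1 to 73.9 TPM in HT positive ones and 44.7 to 57.8 TPM in all negative ones. Atf5, a stress-response factor induced in OSN after receptor choice, had an interaction of 0.21 (SE 0.26) and Ddit3 of -0.77 (SE 0.47), and neither passed. Without MexHT replicate 5, 9 genes of this list were called negative, and 0 without MexHT replicate 3 or 4 or any of the HT mice.

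Of 33 mRNA decay genes 2 were positive and 3 negative (15.2%, against 15.4% of all genes). The negative genes were 3 members of a family that binds AU-rich elements, Zfp36, Zfp36l1 and Zfp36l2, which recruit deadenylases to short-lived mRNAs. Zfp36 was at 43.7, 35.6, 37.6, 62.8 and 51.0 TPM in MexHT positive and at 176, 91.1 and 289 TPM in HT positive libraries, against 267 to 846.5 TPM in all negative libraries (-1.97, SE 0.27). Zfp36 is also abundant in activated myeloid cells, and their part in its values was not tested. Edc3 and Lsm1, which promote decapping, were at 0.73 and 0.72, and 0 genes of the list were called positive without MexHT replicate 4 or any 1 of the HT mice, with 7 to 9 of the 33 at an unadjusted p under 0.05 by limma in these fits. Among 28 translation factors Pabpc1, the main cytoplasmic poly(A)-binding protein, had an interaction below 0, of size 1.19 (SE 0.18), which counts both fractions. In positive libraries alone Pabpc1 was at 202 to 270 TPM in MexHT and 346 to 418 TPM in HT mice. Eif2s2 was positive at 0.51 (SE 0.13).

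Progenitor and cell cycle genes were not called, while basal and sustentacular genes were called negative above the 6.99% of all genes. By limma 0 of 10 progenitor genes and 0 of 16 cell cycle genes were called, with 1 and 2 of them at an unadjusted p under 0.05. Ezh2 (0.54, unadjusted p = 0.016) and Pcna (-0.66, unadjusted p = 0.0093) were closest. Basal cell genes were negative in 4 of 8 cases (Icam1, Krt15, Itga6 and Cdh3), sustentacular genes in 3 of 13 (Aldh1a7, Hes1 and Cyp2f2) and microvillous genes in 1 of 9 (Plcb2). The basal count was 2 without MexHT replicate 1, 2 or 3 or HT replicate 2 or 3, and with the libraries not paired. Icam1, which leukocytes also carry, was at -2.64 (SE 0.31). The sustentacular list summed to 2181 TPM in the positive library of HT replicate 1 and to 529 and 574 TPM in the other HT ones, against 283 to 553 TPM in MexHT positive libraries. Without HT replicate 1, limma called 0 of the 13, with 4 at an unadjusted p under 0.05.

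Of the immediate early genes 2 were called positive, 2 negative and 16 did not pass, a share called little above the 15.4% of all genes. In this list 13 interactions were below 0 and 7 above it, with a median of -0.22. Egr4 (2.08, SE 0.40) and Npas4 (1.54, SE 0.36), which respond to neuronal activity, were the positive genes, and Atf3 and Ier2 the negative ones. Of 40 oxidative phosphorylation genes 2 were positive (Ndufb3 and Ndufs1), of 73 cytosolic ribosomal protein genes 1, of 57 histone genes 1 and of 58 clustered protocadherins 3, with medians of 0.18, -0.01, -0.11 and 0.23. The shares called, 5.0%, 1.37%, 1.75% and 5.17%, were all below the 15.4% of all genes. Pcdhgc3, of the gamma protocadherin cluster, was the clearest at 1.25 (SE 0.17), with a mean of 133 TPM in MexHT and 43.7 TPM in HT positive libraries. Genes of this cluster share exons, so reads may be split among them. Of 20 heterochromatin and lamina genes Lmnb2 and Suv39h1 were positive (10.0% called). Without MexHT replicate 4 or HT replicate 2 or 3, limma called 0 of the heterochromatin genes, with 3 to 5 at an unadjusted p under 0.05. It called 0 of the oxidative phosphorylation genes in these fits and without MexHT replicate 3 or HT replicate 1, with 3 to 7 at an unadjusted p under 0.05.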

How the data were processed

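Libraries were made from 10 ng of total RNA with a SMARTer Stranded Total RNA-Seq Pico Input v2 kit, per the labels' protocols. The submitters' processing notes name FastQC, cutadapt, STAR, bedtools and mm10; the counting program, annotation and strand setting are not given in the sources used here. The deposited TPM tables were taken as they are, and 27 rows whose symbols had become dates (at most 0.221% of TPM) were left out. Whole counts were recovered from the TPM steps for 23613 of 23614 genes (tolerance 0.01) for depth and for 1 alternative. Same-group libraries differed by more than sampling noise (chi-square per degree of freedom 3.33 to 68.0). Within-mouse differences of log2(TPM + 1), with a pseudocount of 1, were fitted with limma 3.58.1 (R 4.3.3; empirical Bayes with a mean trend) over 16842 genes of mean 1 TPM or more, two-sided. The pairing of libraries comes from the labels, which name the same mouse. Deviations of paired libraries from their group means correlated at -0.103 to 0.474. In 4 of 8 pairs the positive library correlated best with the negative library of its own number. The named genes are Mex3a and, among called genes with at least 5 TPM in the highest group and no overlap, the 12 largest in each direction, passing over predicted genes, plus the called members of each list and members of interest that did not pass. Some items are not reported here. Members and lists were chosen with earlier results of these data known. Alternatives covered pseudocount, filter, scaling, limma-voom, block, array weights, each mouse left out, a macrophage covariate and MexHT replicates 3 and 5 left out together; the last 2 were added after seeing the data. The fit was also run on simulated counts, with a mouse effect shared by both libraries of a mouse and no construct difference in macrophage content. That run therefore cannot show how the fit behaves with the weaker pairing and the macrophage difference of these data.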

Additional observations from a re-analysis of the deposited data

Results flagged for a closer look

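In 61 sets of 5 MexHT within-mouse differences (the named genes and the gene lists), 5 had 1 mouse far from the other 4, and chance gives about 1 in 20. They were Camk2b in replicate 1 (3.002), Ccl3 in replicate 3 (-4.63), Trem2 in replicate 1 (-0.66), Fyb in replicate 3 (-3.06) and the median of the unfolded protein and integrated stress response list in replicate 5 (0.32).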

How the results depend on the processing

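The number of called genes, 2593, was 1920 with no replicate block (the mouse not paired), of which 1775 were shared, and the block changed the call of 1 named gene (Cbln2). Median-of-ratios scaling gave 875 positive genes, and quantile normalization 47.9% positive among calls. Array weights gave 4789 genes (2768 positive and 2021 negative). With the macrophage covariate 0 were called in all, 0 positive and 0 negative, and Clec4n (0.09) and Trem2 (0.061) changed sign; the cause was not tested. Leaving out 1 mouse gave 1000 to 2939 genes, 363 to 1538 positive and 637 to 1401 negative, and a Mex3a interaction of 2.25 to 2.64 with exact p of 0.0571 to 0.0952, the smallest these designs give; without MexHT replicates 3 and 5 it was 2.497 (exact p = 0.1). Depth limits genes near 1 TPM, and the 3 HT mice limit the rest. Of 525 results for single named genes under alternatives, 493 kept their direction and call, 30 kept their direction only and 2 changed sign.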

Other observations

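Genes of the X chromosome were called positive in 64 of 536 cases (11.9%), against 8.41% of all genes with a known chromosome and 10.3% on chromosome 8, the next highest; 43 (8.02%) were called negative, against 7.09%. The median interaction of X-linked genes was 0.08. No test was made, and the sex-linked transcripts given above differ between the constructs' mice; their part was not tested.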
